A study of Mus musculus with 1111 samples.

Results

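Malat1, Neat1 and 6 host genes of small nucleolar RNAs (Gas5, Snhg1, Snhg5, Snhg6, Snhg8 and Snhg12) were read in single mouse microglia that had or had not taken up plasma protein. The 8 genes were chosen as a named list by symbol, and all 8 were found among 35583 genes in the deposited tables. Microglia, the resident macrophages of the brain, came from mice 3 months old, 20 hours after injection of plasma proteins tagged with the dye NHS-Atto647N. Each cell gave its own Smart-seq2 library, a plate-based full-length protocol, and its label places it in plasma none, plasma low or plasma high by plasma intensity; after filtering these were 35.1%, 35.6% and 29.4% of 987 cells. All 3 groups therefore come from injected young mice, and plasma none is the group of cells without plasma signal rather than an uninjected control. No strain, sex or animal is named for the cells.

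Malat1 and Neat1 are long RNAs that stay in the nucleus. Malat1 gathers in nuclear speckles, the stores of splicing factors, and Neat1 is the scaffold of paraspeckles, bodies built around proteins such as Nono and Sfpq. The other 6 genes carry small nucleolar RNAs (snoRNAs) in their introns. The snoRNAs guide chemical changes of ribosomal RNA, while the spliced host RNA is often turned over by nonsense-mediated decay when it is translated, and several hosts share with ribosomal protein genes a pyrimidine-rich start that couples their translation to growth signals.

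Malat1 was the most abundant of the 8 and was lower in both plasma-positive groups than in plasma none, 1.29-fold in plasma high and 1.36-fold in plasma low. Neat1 was 1.67-fold lower in plasma high, and Snhg1 was 1.95-fold lower in plasma high and 2.10-fold lower in plasma low. Without TH 3 Neat1 was short of 1.5-fold, and with 1 cell left out of each sum Snhg1 was short of it in both groups. Gas5, the most abundant host gene, was 1.25-fold and 1.31-fold lower in the same order, but close to level in plasma high (log2 ratio -0.020) among cells with 1500 to 2500 genes. Snhg5, Snhg6, Snhg8 and Snhg12 went in different directions in different sets of wells. Some 30 cells had almost no Malat1, and 0 of them belonged to plasma none, 16 to plasma low and 14 to plasma high.

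Because no animal is named, each group is 1 sample of cells and no test between groups was made. Reads were summed within each group for each of the 3 TH numbers, a number in the labels whose meaning is not stated. Errors are the SD over the 3 TH numbers (n = 3), a spread between sets of wells and not between animals. Levels are in CPM, a gene's reads set against its library's total on the customary scale, made comparable between sums. A gene was taken as changed when the mean ratio reached 1.5-fold and all 3 TH numbers gave 1 sign. Only genes averaging 20 CPM or more over the sums of both groups, and detected in 10% or more of the cells of either, could qualify. The 3 comparisons share groups, so they are not independent of each other.

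From plasma none through low to high, median reads per cell were 207429, 229931 and 267143, and median genes per cell were 1708, 1994 and 1943. The median mitochondrial share was 0.603%, 0.794% and 0.970% in the same order. Wells of plasma none filled plate columns 1 to 8, plasma low 9 to 16 and plasma high 17 to 23 in every TH number, so plate position and group cannot be told apart. All 8 microglia markers were read in every group and summed to between 45387 and 54371 CPM, while neutrophil and lymphocyte markers were at 0. Oligodendrocyte markers summed to at most 71.3 CPM and neuronal markers to at most 55.3 CPM, both in plasma high, and their part in the results was not tested.

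The genes lie on 5 chromosomes of GRCm38, the build whose GENCODE M21 coordinates the tables carry for all 8. Malat1 (ENSMUSG00000092341) covers 5795690 to 5802672 on the minus strand of chromosome 19, as 1 exonic block. Neat1 (ENSMUSG00000092274) lies close by on the same strand, from 5824708 to 5845478, with 20771 exonic bases. Snhg1 (ENSMUSG00000108414) is also on chromosome 19, from 8723475 to 8726443 on the plus strand. Gas5 (ENSMUSG00000053332) spans 161034422 to 161038539 on the plus strand of chromosome 1, and Snhg6 (ENSMUSG00000098234) spans 9941959 to 9944118 on its minus strand. Snhg5 (ENSMUSG00000097195) lies on chromosome 9 from 88521050 to 88522929, minus strand. Snhg8 (ENSMUSG00000104960) lies on chromosome 3 from 123507552 to 123508404, minus strand. Snhg12 (ENSMUSG00000086290) lies on chromosome 4 from 132308623 to 132311024, plus strand. All are annotated as long intergenic RNAs or processed transcripts.

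The start sites are shown because the hosts are known for pyrimidine-rich starts and Malat1 is not a host. Each sequence runs 5′ to 3′ on the gene's strand, from 10 bases before to 20 bases after a transcription start of the RefSeq entry (GRCm38.p6), and capitals mark its longest unbroken run of C and T. The table holds 7 entries for 6 of the genes.
Malat1: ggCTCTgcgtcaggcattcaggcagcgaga
Gas5, upstream start: gcgggCCCgcgagctcgacagcccggagcc
Gas5, downstream start: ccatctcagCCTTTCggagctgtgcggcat
Snhg1: tcttgtcggcctcaTTTTTCCTTgttcggg
Snhg5: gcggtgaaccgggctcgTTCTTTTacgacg
Snhg8: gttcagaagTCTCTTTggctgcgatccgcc
Snhg12: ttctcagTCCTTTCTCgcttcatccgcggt
In Snhg12 a run of 9 pyrimidines includes the start base, a length reached by 3.03% of the 32851 promoters of the table. The run at the start is 7 bases in Snhg8, reached by 5.28% of promoters, and 6 bases at the downstream start of Gas5, reached by 7.25%. The upstream Gas5 start, the nearer of the pair to the start of the GENCODE gene, has no pyrimidine at its start base and a longest run of 3. In Snhg1 the run that includes the start is 4 bases (13.97% of promoters), with a run of 9 that begins at base 5 counted from the start as base 1. In Snhg5 the start base is not a pyrimidine and a run of 7 begins at base 8. Malat1 has 2 pyrimidines at its start. Runs of 5 or more at the start were found in 29.9% of 67 ribosomal protein gene promoters and in 10.1% of all promoters. These runs describe the letters at an annotated start and not where transcription began in these cells.

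Malat1 ranked 5 among the 18001 genes with reads, at a mean of 9416 CPM over the 9 sums (range 5808 to 14227). Gas5 ranked 560, Snhg6 2059, Neat1 2582, Snhg1 4418, Snhg5 6634, Snhg8 8264 and Snhg12 8758. Between genes of different length the level per kilobase is the fairer scale. On CPM per kilobase of exon, Malat1 was at 1263, Snhg6 at 75.9 and Gas5 at 69.1, followed by Snhg8 at 14.6, Snhg1 at 13.1, Snhg5 at 12.3, Snhg12 at 4.51 and Neat1 at 3.35. Neat1 thus moved from the 4th place by CPM to the last per kilobase, since it is by far the longest of the 8. With the whole gene span in place of the exons, Gas5 at 63.1 came before Snhg6 at 40.3, so the order of these neighbours depends on the length used.

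**Figure D1:**
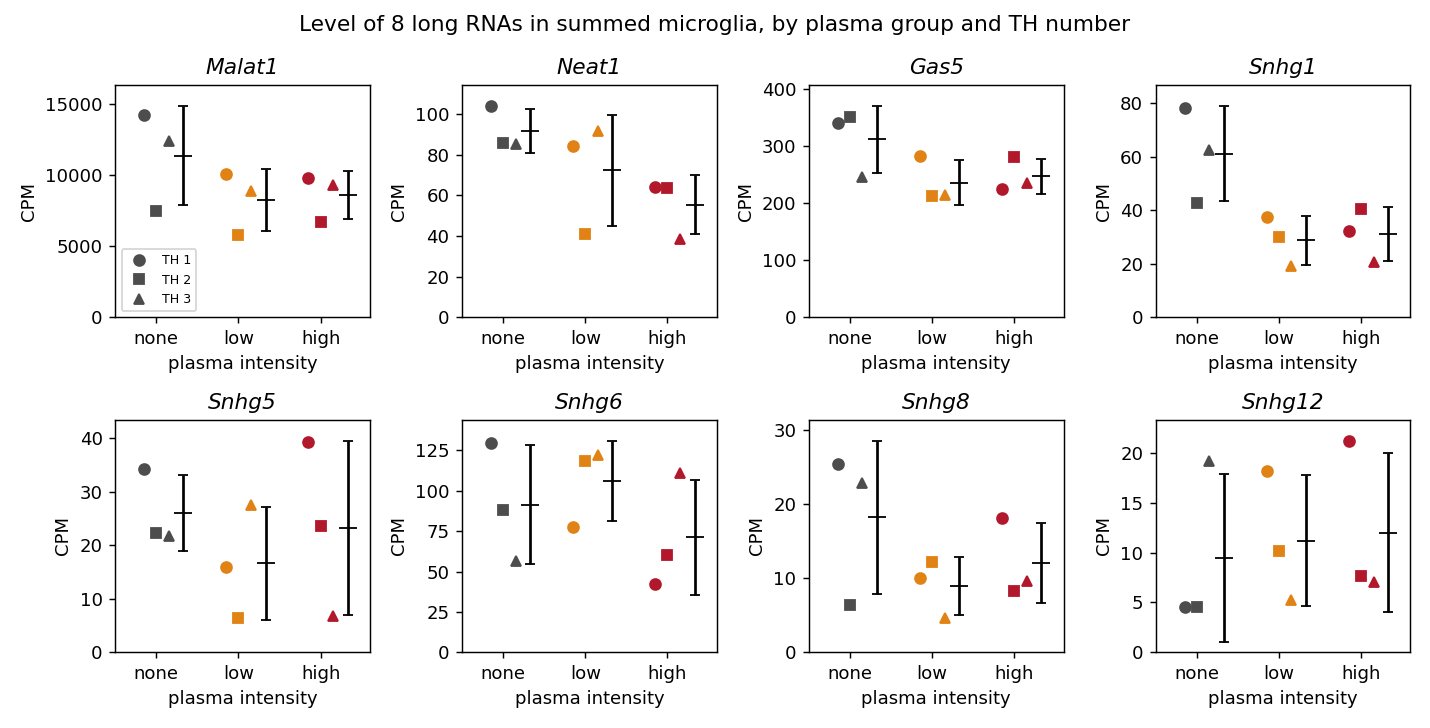
Level in CPM (y axis, from 0, a separate scale per gene) of each of the 8 genes in the 9 sums, by plasma group (x axis) and TH number (symbols), with the mean ± SD over 3 TH numbers in black. All 3 plasma none sums of Snhg1 lie above all 6 other sums, and for Malat1 each TH number has its own level with plasma none on top.

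In plasma none, Malat1 stood at 14227 CPM in TH 1, 7480 in TH 2 and 12412 in TH 3 (mean 11373 ± 3491, n = 3). In plasma low it stood at 10101, 5808 and 8861 CPM (mean 8257 ± 2210, n = 3), and in plasma high at 9818, 6710 and 9330 CPM (mean 8619 ± 1671, n = 3). TH 2 was the lowest in every group, and the groups overlap when TH numbers are mixed, but within each TH number plasma none was the highest. Plasma low against plasma none gave log2 ratios of -0.49, -0.37 and -0.49 by TH number, a mean of -0.45 ± 0.072. For plasma high against plasma none it was -0.54, -0.16 and -0.41, a mean of -0.37 ± 0.19. Between plasma high and plasma low the mean was 0.081 ± 0.12 with 2 of 3 signs alike, which is within the spread of the TH numbers. Malat1 did not reach 1.5-fold in any comparison.

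The single cells showed the same order. The median cell of plasma none held 10952 CPM of Malat1 (quartiles 7601 and 15022), that of plasma low 7977 and that of plasma high 8654. By TH number the medians were 14139, 6870 and 11615 CPM for plasma none, 10302, 5783 and 8739 for plasma low, and 10182, 6026 and 9781 for plasma high. Malat1 reads were spread over many cells: the cell with the most reads gave at most 2.05% of a group's Malat1 reads, and in plasma none it took 95 cells to reach 50% of them. Cells with fewer genes had more Malat1, with a rank correlation of -0.34 across 987 cells when ranked within group and TH number, and between -0.52 and -0.15 in the 9 sets. Both measures come from the same library and share its depth. Its rank correlation was -0.18 with reads per cell, -0.040 with the mitochondrial share and 0.13 with the ribosomal protein share. Since plasma none had fewer genes per cell, the ratio was also taken among cells with 1500 to 2500 genes, a choice made after the data were seen (730 of 987 cells). There Malat1 was at -0.20 ± 0.12 in plasma high and -0.28 ± 0.062 in plasma low on the log2 scale, smaller than over all cells and lower in 3 of 3 TH numbers in both.

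**Figure D2:**
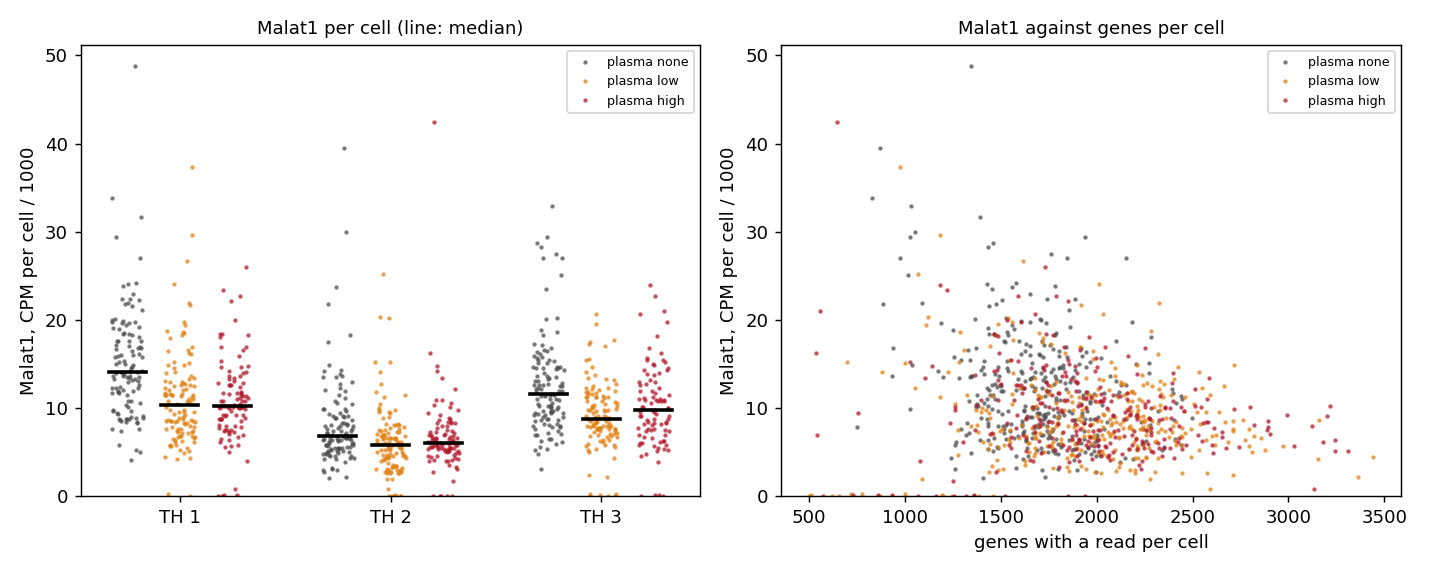
Malat1 in CPM per cell, divided by 1000 (y axes, from 0) by TH number and plasma group (left, lines at the median) and against the genes with a read in the same cell (right), with 1 point per cell. The medians of plasma none are the highest in each TH number, and the cells near 0 in the left panel are all in plasma low and plasma high.

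A small set of cells had little or no Malat1. Below 1000 CPM there were 0 plasma none cells, which allows a share of up to 0.867% by the limit of 3 counts and up to 1.06% by the Clopper-Pearson 95% interval. There were 16 cells of plasma low (4.56%, interval 2.63% to 7.30% by the same method) and 14 of plasma high (4.83%, 2.66% to 7.97%). The line at 1000 CPM was set after the values were seen, and the nearest cells above it held 1942 CPM in plasma low, 1694 in plasma high and 2124 in plasma none. Such cells came from each TH number, 2, 8 and 6 in plasma low and 5, 5 and 4 in plasma high. Of the 30, 20 were below 100 CPM and 3 had no Malat1 read at all. They had reads of between 5 and 8 of the 8 microglia markers, whose summed level ran from 24655 to 60861 CPM in those of plasma low and from 3964 to 55673 CPM in those of plasma high. They had 500 to 3132 genes with a read, and 25 of them had fewer than 1500 genes. Plasma none had 90 cells with fewer than 1500 genes, and 0 of those were below the line. Neat1 was read in 1 of the 30 cells, Gas5 in 9, Snhg6, Snhg8 and Snhg12 in 1 each, and Snhg1 and Snhg5 in 0, which allows a share of up to 10% for the last pair. Their median mitochondrial share was 1.36% in plasma low and 2.86% in plasma high. Without these cells Malat1 was still lower in 3 of 3 TH numbers, at -0.30 ± 0.20 in plasma high and -0.40 ± 0.11 in plasma low. The part of cell integrity in these values was not tested.

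Malat1 overlaps a gene model on the other strand. Gm37376 (ENSMUSG00000102349), a provisional gene model on the plus strand of chromosome 19 from 5801941 to 5802393, lies wholly within the Malat1 exon, and whether strand was used in counting is not given in the sources used here. Its row held 1204311 reads, 48.4% of the 2487709 reads of Malat1, and its share by group and TH number was between 46.9% and 49.7%. Its CPM followed Malat1 across cells with a rank correlation of 0.95 (987 cells), so the pair cannot be told apart here. With both rows added, which counts any read held by both rows again, the log2 ratios were -0.36 ± 0.20 in plasma high and -0.46 ± 0.081 in plasma low.

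Neat1, the paraspeckle scaffold, fell in plasma high. Plasma none held 103.9, 85.8 and 85.2 CPM of it (mean 91.6 ± 10.6), plasma low 84.2, 40.98 and 91.8 (72.3 ± 27.4), and plasma high 64.3, 63.5 and 38.8 (55.5 ± 14.5; n = 3 each). All 3 plasma high sums lay below all 3 plasma none sums, while plasma low overlapped both. By TH number the plasma high to none ratio was -0.68, -0.43 and -1.12 on the log2 scale, a mean of -0.74 ± 0.35. Plasma low against plasma none gave -0.41 ± 0.59 and plasma high against plasma low -0.33 ± 0.92, each with 2 of 3 signs alike. Neat1 was detected in 20.8% of plasma none cells, 22.2% of plasma low cells and 16.6% of plasma high cells, and in 17.2%, 17.7% and 13.5% after each cell was thinned to 50000 reads. The intervals of these shares overlap. Between 7 and 11 cells held 50% of the Neat1 reads of a group. Without TH 3 the ratio for plasma high was -0.56 and no longer 1.5-fold. With each cell weighted equally it was -1.25. Among cells with 1500 to 2500 genes it was -1.18 ± 1.20, with -2.53, -0.25 and -0.77 by TH number, so TH 1 weighs most there.

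Gas5, host to 9 places annotated as snoRNAs (1 of them under a microRNA symbol) and an RNA linked to growth arrest, was the host gene read in most cells. Plasma none held 339.4, 350.9 and 244.95 CPM of it (mean 311.8 ± 58.1), plasma low 281.7, 212.5 and 213.9 (236.1 ± 39.6), and plasma high 225.1, 281.3 and 234.5 (246.99 ± 30.1; n = 3 each). Plasma none was the highest within each TH number, and the groups overlap across them. The log2 ratio was -0.59, -0.32 and -0.063 for plasma high against plasma none (-0.32 ± 0.26) and -0.27, -0.72 and -0.19 for plasma low (-0.39 ± 0.29), short of 1.5-fold in both. Detection went the other way, from 60.1% of cells in plasma none to 61.8% in plasma low and 65.5% in plasma high, or 57.4%, 59.3% and 62.1% after thinning, with overlapping intervals. No order of the groups is read from these shares. In the cells with a Gas5 read the median level was 378.1 CPM for plasma none, 313.4 for plasma low and 313.2 for plasma high. Among cells with 1500 to 2500 genes the plasma high ratio was -0.020, so the Gas5 difference there was close to 0. Zbtb37, which overlaps Gas5 on the other strand and shares 0 exonic bases with it, had 11033 reads, 15.05% as many as Gas5.

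Snhg1, host to 8 annotated snoRNAs, fell in both plasma-positive groups. Plasma none held 78.2, 42.7 and 62.5 CPM of it (mean 61.1 ± 17.8), plasma low 37.4, 29.9 and 19.2 (28.8 ± 9.15), and plasma high 32.2, 40.6 and 20.6 (31.1 ± 10.04; n = 3 each). All 6 plasma-positive sums lay below the lowest plasma none sum. The log2 ratio was -1.26, -0.071 and -1.56 for plasma high (-0.96 ± 0.79) and -1.05, -0.50 and -1.66 for plasma low (-1.07 ± 0.58), the latter past 2-fold. Few cells carried these values: detection was 9.83% in plasma none, 12.3% in low and 11.4% in high, with overlapping intervals from which no order is read, and 3 plasma none cells held 50% of that group's Snhg1 reads. With the cell of most reads left out of each sum, the ratios were -0.48 in plasma high and -0.40 in plasma low and no longer 1.5-fold. Without the 30 cells low in Malat1, the plasma high ratio of -0.90 no longer had 1 sign, with 0.013 in TH 2. With equal weight per cell Snhg1 also no longer met the rule in plasma high, but still met it in plasma low.

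Snhg6, host to 1 annotated snoRNA, was the only one of the 8 to differ by the rule between plasma high and plasma low. Plasma none held 129.5, 88.4 and 56.2 CPM of it (mean 91.4 ± 36.7), plasma low 77.5, 118.3 and 122.4 (106.1 ± 24.9), and plasma high 42.1, 60.1 and 111.03 (71.1 ± 35.8; n = 3 each). TH 3 was the lowest sum of plasma none and the highest of the other groups, and all groups overlap. Plasma high against plasma low gave log2 ratios of -0.86, -0.97 and -0.14 (-0.66 ± 0.45). Against plasma none the mean was -0.39 ± 1.29 in plasma high and 0.26 ± 0.93 in plasma low, without 1 sign. A read of it was found in 19.4% of cells for plasma low, 18.6% for plasma high and 13.01% for plasma none, or 18.4%, 17.05% and 11.9% after thinning, with overlapping intervals. In TH 2 plasma high, at 11.5%, was below plasma none, at 13.3%. Among cells with 1500 to 2500 genes the ratio of plasma high to plasma low was -0.13. With the stricter filter and with equal weight per cell it also no longer met the rule, nor without TH 1 (-0.55) or without TH 2 (-0.50). Snhg6 shares some exonic bases with Mcmdc2 on the other strand, which had 1112 reads, 4.53% as many.

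Snhg5, Snhg8 and Snhg12 were low and uneven. Snhg5, host to 2 annotated snoRNAs, stood at 34.3, 22.2 and 21.8 CPM for plasma none, 15.99, 6.43 and 27.4 for plasma low, and 39.3, 23.6 and 6.72 for plasma high. TH 3 was the highest sum of plasma low and the lowest of plasma high, and the groups overlap. Snhg8, host to 1 annotated snoRNA, stood at 25.4, 6.41 and 22.9 CPM for plasma none, 10.03, 12.2 and 4.55 for plasma low, and 18.2, 8.24 and 9.65 for plasma high. Snhg12, host to 4 annotated snoRNAs, stood at 4.52, 4.58 and 19.2 CPM for plasma none, 18.3, 10.1 and 5.20 for plasma low, and 21.3, 7.66 and 7.11 for plasma high. Their mean log2 ratios for plasma high against plasma none were -0.43 ± 0.98, -0.44 ± 0.74 and 0.44 ± 1.67, each with 2 of 3 signs alike. For plasma low against plasma none they were -0.79 ± 1.01, -0.84 ± 1.51 and 0.37 ± 1.84. Snhg8 and Snhg12 were below a mean of 20 CPM in all 3 comparisons, and Snhg5 in plasma high against plasma low, so these did not enter the counts of genes past 1.5-fold. Over the 3 groups, 7.12% to 10.4% of cells had a read of Snhg5, 12.3% to 15.9% of Snhg8 and 8.67% to 12.4% of Snhg12.

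**Figure D3:**
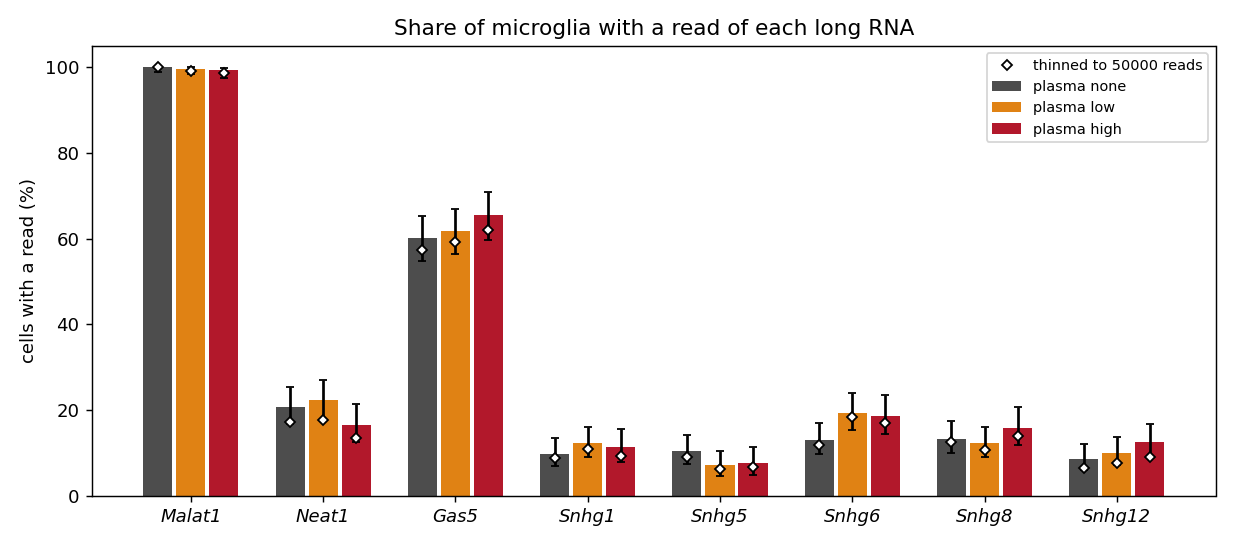
Share of cells with at least 1 read of each gene (y axis, percent), by plasma group, with Clopper-Pearson 95% intervals and, as diamonds, the share after thinning each cell to 50000 reads. Malat1 was read in at least 99.3% of cells and Gas5 in 60.1% to 65.5%, while the other 6 genes were read in 22.2% of cells or fewer.

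These intervals cover counting error only, and reads are not independent molecules. A cell without a read of a low gene is not shown to lack its RNA at this depth.

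The 6 host genes together summed to 611, 515 and 428 CPM in plasma none (mean 518 ± 91.95), 441, 390 and 393 in plasma low (408 ± 28.7), and 378.2, 421 and 390 in plasma high (396 ± 22.4; n = 3 each). The highest plasma-positive sums, 441 and 421 CPM, were close to the lowest of plasma none, 428 CPM. The log2 ratio of the sum was -0.69, -0.29 and -0.13 for plasma high (-0.37 ± 0.29) and -0.47, -0.40 and -0.12 for plasma low (-0.33 ± 0.19). Gas5 gave most of these reads. The median cell of each group had reads of 1 of the 6 hosts, and cells with reads of 0 of them made up 23.7% for plasma none, 20.8% for low and 19.7% for high. Across cells the 8 genes did not follow each other: the rank correlation of every pair lay between -0.068 and 0.062 over 987 cells, many of them at 0. None of the 25 places annotated as snoRNAs within the hosts has a row of its own in the tables, which hold 8 snoRNA rows with 750 reads in all, so the mature snoRNAs were not measured.

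Set beside all genes, the list stood as follows. In plasma high against plasma none, 6 of the 8 passed the filter on low values, and 2 of these (Neat1 and Snhg1) were lower past 1.5-fold, while 6.98% of 5534 genes were lower by that rule. None was higher, against 9.34% of all genes, and 0 passed 2-fold, against 5.15%. The sign was the same in 3 of 3 TH numbers for 4 of the 6, against 32.5% of all genes. In plasma low against plasma none 6 passed the filter and 1 (Snhg1) was lower, against 4.19% of 5489 genes. None was higher, against 6.03%, Snhg1 alone passed 2-fold, against 2.64%, and 3 had 1 sign in 3 of 3 TH numbers, against 28.5%. In plasma high against plasma low 5 passed the filter and 1 (Snhg6) was lower, against 5.66% of 5709 genes. None was higher, against 5.48%, 0 passed 2-fold, against 3.28%, and 1 had the same sign throughout, against 27.2%. The median log2 ratio over all 8 genes was -0.41, -0.43 and 0.079 in the 3 comparisons, and over all genes that passed the filter 0.054, 0.049 and 0.0056.

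**Figure D4:**
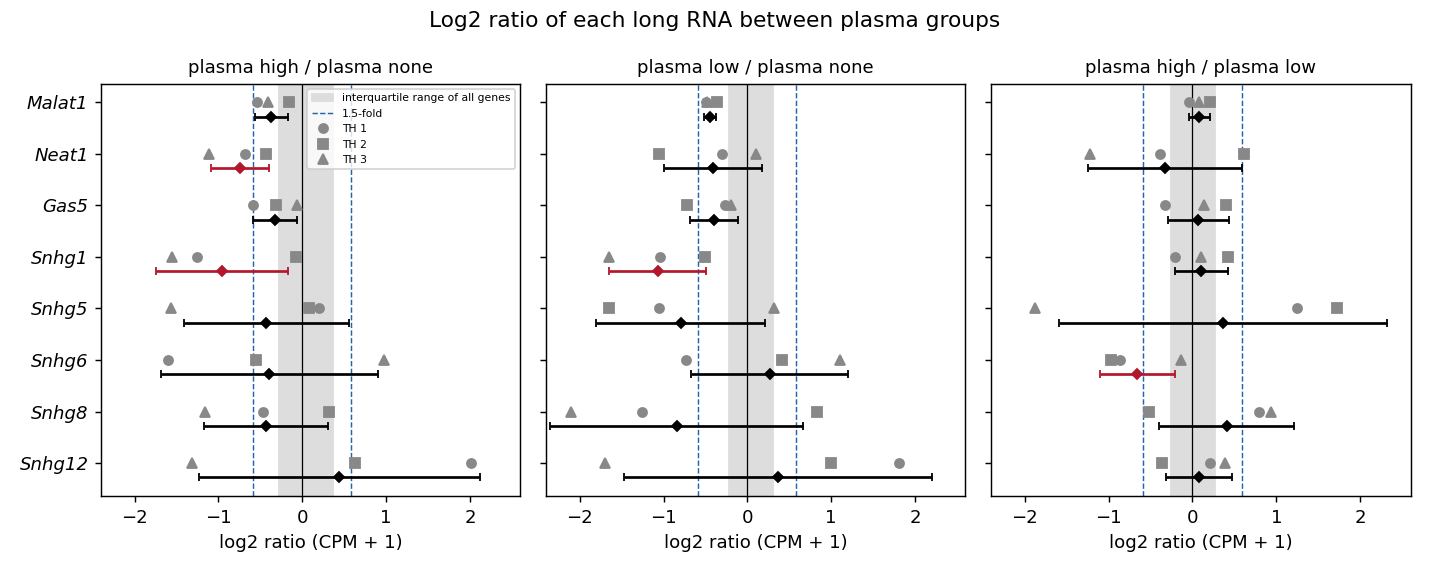
Log2 ratio of CPM + 1 (x axis) for each of the 8 genes in the 3 comparisons, by TH number (grey symbols) and as mean ± SD (diamonds, red where the 1.5-fold rule was met), with the interquartile range of all genes shaded and 1.5-fold dashed. Malat1 has the narrowest spread, -0.45 ± 0.072 in plasma low against plasma none, and Snhg12 the widest in the first panel, 0.44 ± 1.67.

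The genes most like each of the 8 across cells were sought among 2012 genes read in at least 25% of cells at a mean of at least 20 CPM. Apart from Gm37376, the gene most like Malat1 was Slc34a2, a phosphate transporter, with a rank correlation of 0.28. For the other genes the likeness was weak: 0.13 for Cyth4 with Snhg8 was the highest. The nearest were Gm26857 and Eif3k for Neat1, Rps9 and Tial1 for Gas5, Gapvd1 and Amz1 for Snhg1, Gcnt1 and Lcp1 for Snhg5, Srsf6 and Derl2 for Snhg6, Cyth4 and Orai1 for Snhg8, and Cd68 and Ep300 for Snhg12. All values are over 987 cells within group and TH number, and in counts this sparse they are no finding.

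Related genes were described from 8 lists, and their counts stand beside those over all 5534 genes of plasma high against plasma none, of which 54.8% were higher, 9.34% rose past 1.5-fold and 6.98% fell past it. Of 15 other long host RNAs, 13 have a row and 3 passed the filter in plasma high against plasma none, with 0 past 1.5-fold and a median log2 ratio of -0.23. Zfas1, itself a snoRNA host, had the lowest ratio among those that passed, -0.43 ± 0.43, and Snhg3 was at 0.041 ± 0.24. Snhg14 (-0.52 ± 0.44) and Snhg4 (0.41 ± 0.97) were at least 20 CPM but read in too few cells to pass. Of 18 other long RNAs 3 passed. Tug1 rose from 287.6 ± 69.6 CPM in plasma none to 487 ± 30.2 in plasma high (log2 0.79 ± 0.35, 3 of 3), opposite in sign to Malat1 and Neat1 there. In plasma low against plasma none Tug1 was at -0.061 ± 0.66, without 1 sign. Dleu2 was at 801 ± 411 CPM in plasma none and 487 ± 189.4 in plasma high (-0.68 ± 0.71), with 1 sign in 2 of 3.

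Most protein-coding genes that also carry snoRNAs were higher in plasma high. Of 17 that passed the filter, 13 were higher and 4 lower in plasma high, with 2 risen past 1.5-fold, a share near the 9.34% of all genes, 0 fallen and a median of 0.24. Rpl7a, a protein of the large ribosomal subunit, rose by 0.60 ± 0.48, while Nop56, a core protein of snoRNA particles, was at -0.47 ± 0.74. Of 77 ribosomal proteins 68 were higher and 9 lower, with 10 risen, also near 9.34%, 0 fallen and a median of 0.32. Higher values were found in 54.8% of all genes. Rpl15 rose most, by 0.86 ± 0.10, and Rpl5 was at -0.51 ± 0.30. In plasma low the medians were 0.083 for the coding hosts and 0.16 for the ribosomal proteins. The difference between these lists and the long RNA hosts was not tested.

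Paraspeckle proteins, the partners of Neat1, had 10 genes past the filter, 3 higher and 7 lower, 1 of them fallen, near the 6.98% of all genes, with a median of -0.24 in plasma high and 0.12 in plasma low against plasma none. Smarca4, a chromatin remodeller, fell from 102.7 ± 19.2 to 55.7 ± 11.6 CPM (-0.88 ± 0.32), Hnrnph3 was at -0.90 ± 1.70 and Hnrnpk at 0.48 ± 0.47. The median of this list in plasma high was 0.014 among cells with 1500 to 2500 genes. Of 14 nuclear speckle and splicing proteins 5 were higher and 9 lower, with a median of -0.14, and Srsf2, a splicing factor of speckles, fell from 3734 ± 630.5 to 2463 ± 157.3 CPM (-0.59 ± 0.32). Prpf8, of the spliceosome core, was at 0.55 ± 1.02. The 5 snoRNA particle proteins that passed had 2 higher and 3 lower, 0 past 1.5-fold, a median of -0.10 and Snu13 at 0.28 ± 0.68. Dkc1, the pseudouridine synthase of these particles, was at -0.77 ± 0.48 but read in too few cells to pass. In plasma low against plasma none Dkc1 passed and rose from 28.7 ± 6.08 to 45.6 ± 9.33 CPM (0.65 ± 0.49, 3 of 3). There 7 genes of the list passed, 4 higher and 3 lower, with 1 risen, against 6.03% of all genes. In plasma high against plasma low 7 passed, 0 higher and 7 lower, with 1 fallen, against 5.66%.

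Factors of nonsense-mediated decay, which degrades several spliced host RNAs, had 7 genes past the filter, 2 higher and 5 lower in plasma high, with 3 fallen, against 6.98% of all genes, 0 risen and a median of -0.17. In plasma low against plasma none 6 passed, 1 higher and 5 lower with a median of -0.34, and 0 were past 1.5-fold. In plasma high against plasma low 5 passed and 1 rose. Xrn1, the cytoplasmic 5′ to 3′ exonuclease, fell from 150.8 ± 52.1 to 72.1 ± 4.04 CPM (-1.002 ± 0.40). Smg1, the kinase of Upf1, fell from 210 ± 97.2 to 96.6 ± 7.07 CPM (-0.99 ± 0.70), and Smg9 was the third to fall, at -0.92 ± 0.76. Upf3b was highest, at 0.67 ± 1.20, with 2 of 3 signs alike. Without TH 3 the median of this list was -0.56.

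**Figure D5:**
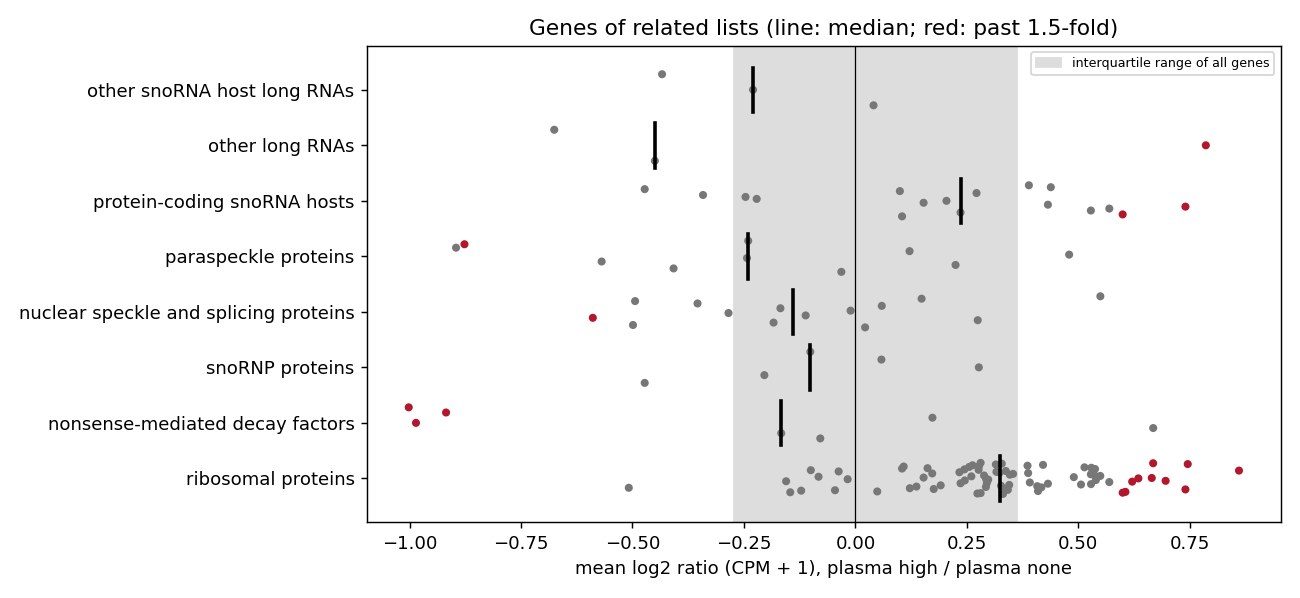
Mean log2 ratio of CPM + 1 in plasma high against plasma none (x axis) for each gene of the 8 related lists that passed the filter, with the list's median as a line, genes past 1.5-fold in red and the interquartile range of all genes shaded. Ribosomal proteins lie mostly right of 0 (median 0.32), and the red points of the nonsense-mediated decay list lie left of it.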

How the data were processed

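The authors deposited raw read counts per gene and cell, 1 table for each TH number. Of 1111 labelled cells 1045 were matched by well to a column, and 66 were not analysed here. In 1 column of TH 3 the deposited values were taken as estimated counts, because 2 of them were not whole, and were rounded. Per the submitters' processing notes bcl2fastq, Trim Galore, STAR 2.5.3a, Seurat and mm10 were used; the counting tool and its strand setting are not given in the sources used here. Per the file headers, only TH 2 and TH 3 came from alignments limited to top hits.

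Cells with 50000 or more reads and 500 or more detected genes were kept (987). Their counts were added up by group and TH number and scaled to CPM with TMM factors (edgeR 4.0.16, R 4.3.3), with DESeq2 1.42.0 size factors as an alternative. Log2 ratios used 1 CPM as pseudocount, were formed within each TH number and then averaged. No test was made and no p-value computed. The 8 genes and all gene lists were chosen with earlier results of these data known. Each list names its largest rise and fall in plasma high against plasma none at 20 CPM or more; Zfas1, Snhg3, Rpl7a, Smarca4, Smg1 and Smg9 were added after their values were seen. A gene that this rule names is not reported here. Rank correlations used ranks within group and TH number. The procedure was tested on simulated data. For the fold rule the simulated sums varied less than these and held no single cells, so they do not show how it performs here. Start sequences and promoter shares are from RefSeq (GRCm38.p6); gene models from GENCODE M21, which held 35546 of the 35583 gene IDs.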

Additional observations from a re-analysis of the deposited data

How the results depend on the processing

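The alternatives covered scaling, cell filters, pseudocounts, equal weight per cell, leaving out the top cell of each gene or 1 TH number, and, added after the data were seen, the 1500 to 2500 gene window, leaving out cells below 1000 CPM of Malat1 and adding Gm37376 to Malat1. Of the alternative values of the 8 genes' ratios, 8 moved by more than the SD over TH numbers and the rest by less. Leaving out 1 TH number cannot move a mean of 3 by more than that SD, so those values could not count as moved. No ratio past 1.5-fold changed sign, and the rule of 1 sign fixes this in advance when a TH number is left out. Some ratios short of 1.5-fold did change sign. Snhg1 in plasma high against plasma low kept its sign in 10 of 14 alternatives, and Snhg6 in plasma high against plasma none in 12 of 14. In plasma high against plasma none the number of the 8 genes past 1.5-fold was 2. It was 1 (Neat1) with equal weight per cell, with the top cell left out and without the cells below 1000 CPM of Malat1, and 2 when any 1 TH number was left out, though without TH 3 these were Snhg1 and Snhg6. In plasma low against plasma none it was 1 (Snhg1), 0 with the top cell left out, and 1 to 3 when 1 TH number was left out. In plasma high against plasma low it was 1 (Snhg6), and 0 with at least 100000 reads and 1000 genes, with equal weight per cell and among cells with 1500 to 2500 genes. It was 0 to 1 when 1 TH number was left out: 0 without TH 1, Neat1 in place of Snhg6 without TH 2, and Snhg6 without TH 3. The cause of these changes was not tested. Malat1 was lower in plasma high (range -0.47 to -0.20) and in plasma low (-0.49 to -0.28) under every alternative run. Among all genes, the number past 1.5-fold was 903, 561 and 636 in the 3 comparisons, and 2531, 2017 and 2079 with no filter on low values. With 1 TH number left out, which needs only 2 signs alike, it was 1261 to 1559, 983 to 1154 and 1097 to 1267. No paired test was made, because the results come from no test to which a replicate block could be added. Each ratio compares sums of the same TH number. Snhg1, Snhg5, Snhg8 and Snhg12 were each read in 15.9% of cells or fewer, so their values rest on few cells. The part of depth in this was not tested.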
